A study of Mus musculus with 13 samples.

Results

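A set of 7 genes for secreted plasma proteins was followed through single cells of the mouse small intestine: Alb, Afp, Ahsg, Ttr, Rbp4, Clu and Igfbp2. These 7 of the 16204 genes in the files were picked by symbol, because their counts had been seen to gather in few cells and to differ between groups, so their own levels and differences are given as descriptions with no test. Of 892 kept cells, 407 held at least 1 molecule of a member. The mice carried Lgr5-CreERT2 (C57Bl6/J), in which the Lgr5 promoter drives an inducible Cre, together with the reporter Rosa26LSL-YFP, so that tamoxifen marks Lgr5+ stem cells and their later offspring with YFP (traced cells). Groups are named by the time after tamoxifen, the YFP state and the sorting gate on the surface protein CD24. At 5 days 5 libraries held traced cells, and at 3 weeks 1 library held traced CD24+ cells and 1 was labelled as non-traced CD24+. At 8 weeks there were 1 library of traced cells with no CD24 gate, 3 of traced CD24+ cells and 2 of non-traced CD24+ cells. All groups, the non-traced ones included, share the Cre line and the reporter as the labels give them. The ages of the mice are not given in the sources used here.

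Hepatocytes make most plasma proteins and release them into the blood, where albumin (Alb) and, in the fetus, alpha-fetoprotein (Afp) are the main carriers of small molecules, fetuin-A (Ahsg) keeps mineral from precipitating, transthyretin (Ttr) carries thyroid hormone, and retinol-binding protein 4 (Rbp4) carries vitamin A in a complex with transthyretin. Clusterin (Clu) is an extracellular chaperone of plasma, and insulin-like growth factor binding protein 2 (Igfbp2) binds the growth factors IGF1 and IGF2. Enteroendocrine cells, the hormone cells of the gut epithelium, also secrete proteins into the blood: they include serotonin-producing enterochromaffin cells, marked by Tph1, Chga and Tac1, and cells that make peptide hormones such as Gip, Cck, Ghrl or Sst.

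Alb and Afp are related genes that lie next to each other on the same strand of mouse chromosome 5 (GRCm38, GENCODE M21). Alb spans 90460897 to 90476602 and Afp starts 14135 bases after its end, at 90490737. Their promoters are shown because these neighbours parted in the cells below, and because the classical liver motif GTTAAT, a half-site of the liver-enriched factor HNF1, was found in both. The sequences are the 150 bases before each RefSeq start on the plus strand of GRCm38.p6, chr5:90460720-90460869 for Alb and chr5:90490564-90490713 for Afp, with the motif in capitals.
Alb: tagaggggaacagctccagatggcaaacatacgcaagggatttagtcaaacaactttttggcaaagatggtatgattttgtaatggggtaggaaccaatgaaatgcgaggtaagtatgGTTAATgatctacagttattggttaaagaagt
Afp: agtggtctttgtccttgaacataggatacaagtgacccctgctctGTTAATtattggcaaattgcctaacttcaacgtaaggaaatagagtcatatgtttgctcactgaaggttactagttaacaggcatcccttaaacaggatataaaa

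The motif was searched as GTTAAT on both strands (ATTAAC on the plus strand). It began 32 bases before the RefSeq start of Alb and 105 bases before that of Afp. These RefSeq starts lie upstream of the GENCODE gene starts given above. Within 250 bases it was found in 2 of the 5 members searched (Alb, Afp, Ahsg, Rbp4 and Igfbp2) and in 2113 of 32851 RefSeq promoters (6.43%). Clu had no promoter entry, and Ttr was left out of the search. In the 150 bases printed, 1218 promoters (3.71%) held it. A match describes the letters in the window and is not a bound site. Ahsg lies on chromosome 16 (22891277 to 22899449, plus strand), Ttr on 18 (20665280 to 20674321, plus), Rbp4 on 19 (38116629 to 38125281, minus), Clu on 14 (65968483 to 65981547, plus) and Igfbp2 on 1 (72824503 to 72852474, plus).

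The libraries were made by CEL-seq, which tags the 3' end of each transcript with a cell barcode and a random molecular barcode. A molecule is a distinct molecular barcode of a gene in a cell. Libraries held 421675 to 1385266 transcripts over 96 barcodes each, and a barcode counted as a kept cell once it reached 3000 transcripts, spike-in RNA left aside, which 892 of 1248 did. Levels of summed cells are CPM, 100 times the transcripts of a gene per 10000 transcripts of the sum, with exact Poisson 95% intervals that cover counting error only. A count of 0 in a library allows a level of up to 2.17 to 8.10 CPM, depending on its depth (a floor of 3 counts). All 13 libraries listed Ttr and Rbp4, 10 Clu, 8 Alb, 7 Afp, 4 Igfbp2 and 3 Ahsg. The sex of the mice differed with time: the 8 later libraries held 81.3 to 174 CPM of Xist and no Ddx3y, against 0 to 1.34 CPM of Xist and 19.7 to 42.4 CPM of Ddx3y at 5 days. In the combined table the 3-week cells labelled non-traced bear a name with YFP in it and without CD24, which goes against the label. The labels do not say which libraries came from separate mice, so the spread between libraries may be technical.

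A single cell held most molecules of Alb and Ahsg in the whole series. It was barcode 6 of 8-week traced CD24+ replicate 2, called the Alb-rich cell here, and it was the top cell of 5 of the 7 members. It held 184 molecules of Alb, which is 80.3% of the 229 in all kept cells, and 153 of the 185 molecules of Ahsg (82.7%). It also held 105 of 310 molecules of Afp (33.9%), 98 of 911 of Ttr (10.8%) and 33 of 133 of Igfbp2 (24.8%). Its shares of the remaining members were smaller, with 16 of 623 molecules of Rbp4 (2.57%) and 6 of 89 of Clu (6.74%). Together the members took 595 molecules, or 9.08% of those in the cell, and no other kept cell held more than 84.

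In depth the Alb-rich cell lay near its neighbours. It had 7016 transcripts against a library median of 7666, 2665 detected genes against a median of 3127 over all kept cells, and a spike-in share of 2.36%. The same barcode held 0 molecules of Alb, Ahsg, Afp, Igfbp2 and Clu in the other 12 libraries.

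Other liver products accompanied the members in that cell. Of 62 further plasma protein genes in the files, 56 were detected there with 789 molecules, a level of 1213 transcripts per 10000 of the cell, against a median of 5.05 and a maximum of 516 in the other cells. They included transferrin (Trf, 81 molecules), the lipoprotein genes Apoe (74), Apoa2 (48) and Apoc1 (40), complement C3 (39), haptoglobin (Hp, 31) and the fibrinogen chain Fga (22). The haem scavenger Hpx (18 molecules), Apcs, which encodes serum amyloid P (10), and Igfbp1 (23) were found in no other kept cell. Of 13 hepatocyte markers, 11 were detected (137 molecules, 202 per 10000, against at most 65.1 in another cell), while Tdo2 and Tat, enzymes of amino acid breakdown in liver, were at 0. The hepatocyte list shares genes with the plasma protein list, among them Fga, Ambp (19 molecules) and Serpina1c (10), so the lists are not independent. Genes of the IGF pathway stood at 90.8 per 10000, against at most 17.8 elsewhere, with 27 molecules of Igf2, the fetal growth factor, and H19, the imprinted RNA beside Igf2, had 45. The beta globin gene Beta-s had 76 molecules, and the neutrophil genes S100a8 and S100a9 had 14 and 12.

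Gut markers lay within the range of other cells. The 19 core endocrine genes had 2 molecules (2.86 per 10000, against a median of 0.972 in the other cells, rank 234 of 892), the stem cell list and Lgr5 had 0, and Cd24a, which encodes the protein gated for in this library, had 0. Epcam, the epithelial adhesion gene, had 2. Paneth cell markers had 40 molecules (59.3 per 10000, against a median of 20.8, rank 165) and enterocyte markers 102 (155 per 10000, against 13.2, rank 30), a list with Apoa1, Apoa4 and Fabp1, which liver also expresses. The cell is given no cell type name, and no doublet caller was run.

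**Figure D1:**
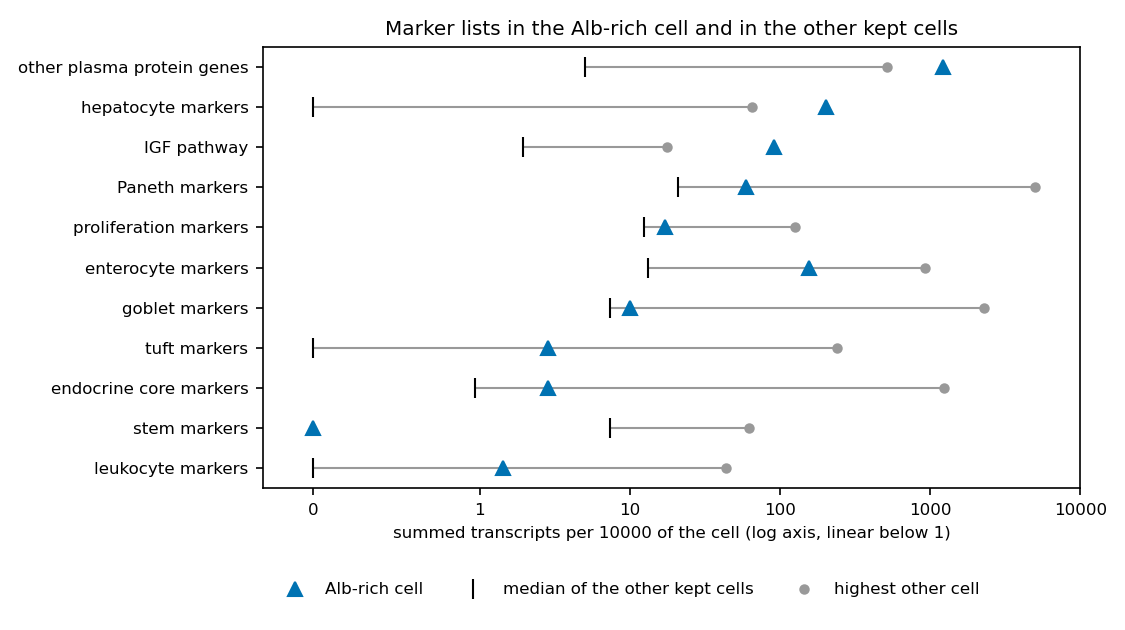
Summed transcripts per 10000 of each marker list (log axis, linear below 1) in the Alb-rich cell (triangle), with the median (tick) and the highest (circle) of the other 891 kept cells. The Alb-rich cell lies beyond every other cell for plasma protein genes (1213), hepatocyte markers (202) and the IGF pathway (90.8), and within the range of the others for the remaining lists. The plasma protein and hepatocyte lists share genes.

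Traces of the same products ran through the rest of that library. Of the 45 molecules of Alb outside the Alb-rich cell, 24 lay in its 64 library neighbours, in 23 cells with at most 2 molecules each. Of the 32 of Ahsg, 27 lay in 19 of them, with at most 3 in a cell. Per 100 molecules in the Alb-rich cell the neighbours held 13.04 of Alb, 17.6 of Ahsg, 12.3 of Trf, 18.9 of Apoe, 19.4 of Hp, 9.09 of Fga and 6.67 of H19. Apoe was not particular to this library. Its neighbours held 14 molecules, against 15 in 5-day traced replicate 2 and 17 in 8-week non-traced CD24+ replicate 1. Alb and Ahsg reached at most 9 and 4 molecules in another library, 8-week non-traced CD24+ replicate 2. Serpina1a stood higher at 45.2, with 9 of its 14 molecules in a single neighbour, and Hpx and Igfbp1 were at 0. Whether these molecules came from the Alb-rich cell was not tested, so a share of cells with a molecule of Alb or Ahsg in this library is not read as expression. The same holds for cells with 1 to 3 molecules of Afp there, since the Alb-rich cell held 105 of Afp. Every count below is given without the Alb-rich cell where it matters.

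Among the remaining cells the members parted by cell kind. An endocrine-marker cell was a kept cell with at least 3 of 19 core endocrine genes detected and at least 10 transcripts per 10000 from that list, on which no member stands; 128 cells met this and 763 others besides the Alb-rich cell did not. Endocrine-marker cells held 11.1% of all transcripts, but 97.0% of the remaining 100 molecules of Igfbp2, 95.6% of the 205 of Afp and 92.3% of the 607 of Rbp4. They held 57.8% of the 45 molecules of Alb, 41.8% of the 813 of Ttr, 40.6% of the 32 of Ahsg and 10.8% of the 83 of Clu. The share for Clu thus lay close to the share of transcripts, and those for Igfbp2, Afp and Rbp4 were far above it.

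With all libraries pooled, the share of cells with at least 1 molecule was higher among endocrine-marker cells for every member, by little for Clu. At least 1 molecule of Rbp4 was found in 43.8% of endocrine-marker cells and in 5.24% of other cells, and after thinning each cell to 3000 molecules in 36.2% and 1.45%. For Afp the shares were 12.5% and 1.18% (9.21% and 0.481% thinned), and for Igfbp2 10.9% and 0.393% (7.89% and 0.0968% thinned). Ttr was widespread, with 60.2% and 30.8% of cells (44.37% and 14.003% thinned). Clu was found in 4.69% and 4.19% (2.44% and 1.64% thinned), Alb in 14.1% and 2.23% (9.38% and 0.842% thinned) and Ahsg in 7.03% and 1.83% (4.35% and 0.733% thinned). Most cells with Alb (23 of 35) or Ahsg (19 of 23) lay in 8-week traced CD24+ replicate 2, the library of the Alb-rich cell. There Alb was found in 8 of 20 endocrine-marker cells and in 23 of all 64 neighbours, and Ahsg in 7 of 20 and 19 of 64. The pooled shares of Alb and Ahsg are therefore not read as expression. Endocrine-marker cells were shallower, with a median of 6852 transcripts against 8988 in the other cells, and thinning left out 1 and 4 cells.

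**Figure D2:**
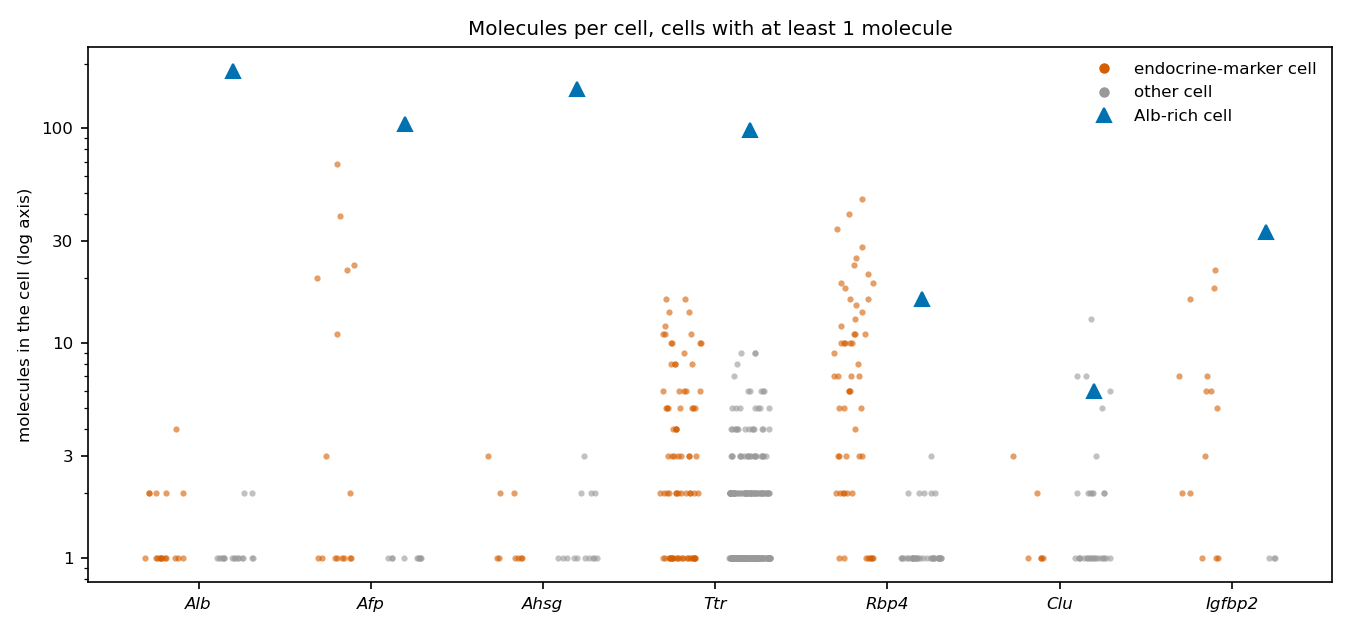
Molecules of each gene (log axis) in every kept cell with at least 1, split into endocrine-marker cells (left of each pair), other cells (right) and the Alb-rich cell (triangle). The cells with 5 or more molecules of Afp, Rbp4 and Igfbp2 besides the Alb-rich cell are endocrine-marker cells (6, 36 and 8 cells), while the 5 such cells of Clu lie among the others.

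Which hormone the cell made separated the members further. Endocrine-marker cells were grouped by the gene with most molecules, and at least 10, among Tac1, Gip, Cck, Gcg, Ghrl, Sst, Nts, Pyy, Sct and Neurog3, a rule set after the values had been seen. Afp and Igfbp2 lay mostly in some of the 30 Tac1-led cells, which came from 9 libraries. Summed over the 30, Afp stood at 680.1 CPM (95% interval 584 to 787), with 180 of its 196 endocrine molecules in 10 cells. Igfbp2 stood at 336 CPM (272 to 411), with 95 of 97 molecules in 12 cells. All 95 lay in 8-week traced CD24+ cells (12 of 20), and the Tac1-led cells of other groups held 0. Of the 180 of Afp, 155 lay in 8-week traced CD24+ cells (8 of 20), with up to 68 in a single cell. Another 23 lay in 1 of 4 cells at 5 days, and 2 in 1 of 4 non-traced cells at 8 weeks. The single Tac1-led cells of the 3-week traced and 8-week ungated libraries held neither gene. Ttr reached its highest level in the 30 Tac1-led cells, 664 CPM (573 to 766), with a molecule in all 30. Rbp4 was nearly missing from them, with 2 molecules and 6.91 CPM.

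Rbp4 instead followed the peptide hormones. It stood at 1679.7 CPM (1508 to 1865) in the 27 cells led by Gip, the incretin of the upper gut, with a molecule in all 27. It reached 1200.2 CPM in 4 cells led by Cck, 1004 CPM in 5 led by Gcg, 764 CPM in 11 led by Sst (11 of 11 cells) and 648 CPM in 4 led by Sct. In 19 cells led by Ghrl, which encodes ghrelin, it stood at 67.6 CPM (32.4 to 124), and in 14 cells led by Neurog3, the transcription factor of endocrine progenitors, no molecule was found, which allows up to 38.2 CPM as the upper Poisson bound. Ttr took intermediate levels in Sst-led (427 CPM), Gcg-led (349.8 CPM, all 14 molecules in 1 cell), Cck-led (312 CPM), Ghrl-led (163 CPM), Neurog3-led (146 CPM) and Gip-led cells (101 CPM). Alb held 26 molecules in all endocrine-marker cells, with no more than 7 under any leading gene.

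**Figure D3:**
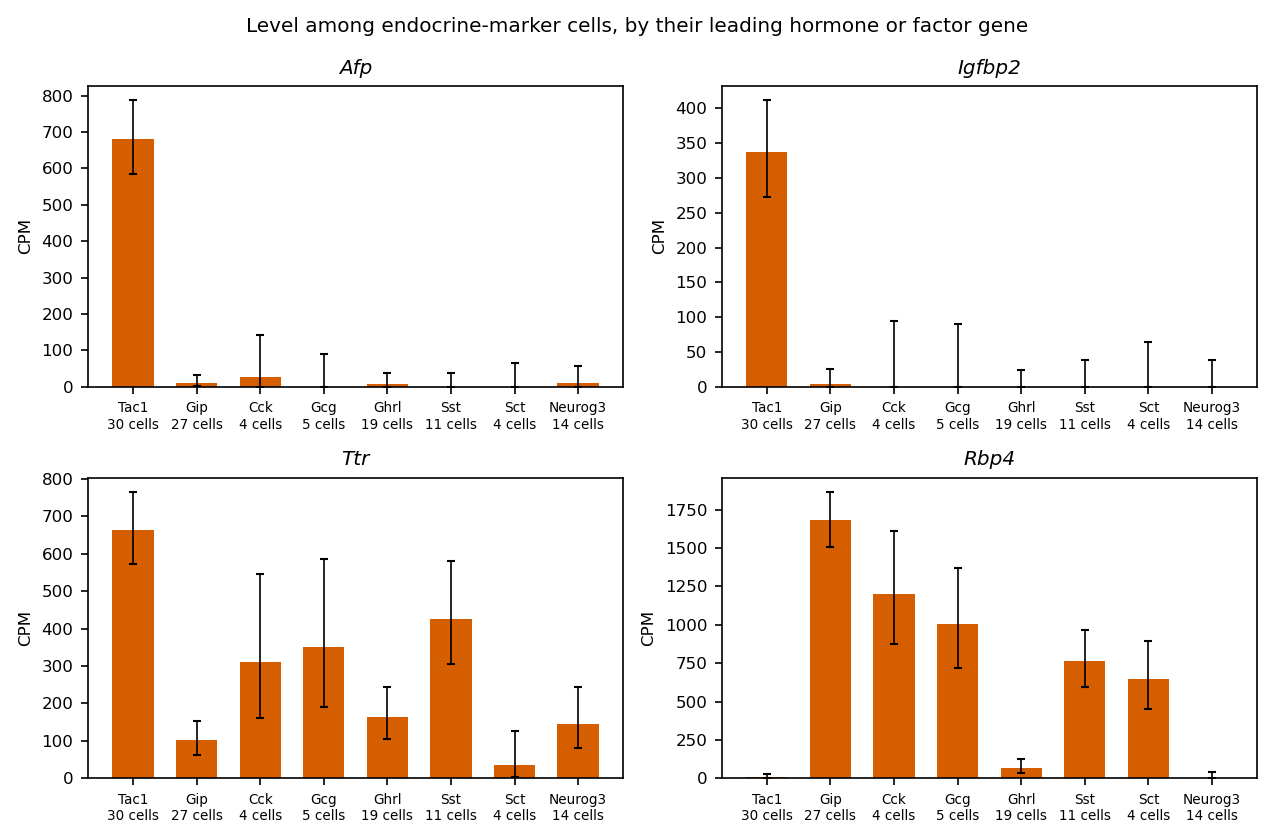
Level (CPM, linear axes from 0) of Afp, Igfbp2, Ttr and Rbp4 in endocrine-marker cells grouped by leading hormone or factor gene; bars are summed cells and error bars exact Poisson 95% intervals. Afp (680.1) and Igfbp2 (336) are highest in Tac1-led cells, where Rbp4 is at 6.91, and Rbp4 is highest in Gip-led cells (1679.7).

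The single cells that led each gene carried those hormones. After the Alb-rich cell, Afp was highest in barcode 13 of 8-week traced CD24+ replicate 3, with 68 molecules beside 156 of Chga, 66 of Tac1 and 24 of Tph1, the enzyme of serotonin synthesis. Barcode 59 of replicate 2 of that group followed with 39, beside 124 of Chga and 37 of Tac1. The same barcode 13 held 16 molecules of Ttr, as did barcode 74 of 8-week non-traced CD24+ replicate 1, which had 65 of Tac1. Igfbp2 was next highest in barcode 77 of replicate 2 (22 molecules, 146 of Chga) and barcode 42 of replicate 3 of the 8-week traced CD24+ group (18 molecules, 100 of Chga, 45 of Tac1).

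The top cells of Rbp4 were of another kind. Barcode 5 of 8-week non-traced CD24+ replicate 2 held 47 molecules beside 228 of Gip and 85 of Cck. Barcode 10 of the 3-week library with the label non-traced had 40 beside 255 of Gip, and barcode 62 of 8-week non-traced CD24+ replicate 1 had 34 beside 243 of Cck and 176 of Gip. Outside the Alb-rich cell, Alb reached at most 4 molecules, in a Ghrl-led cell of 8-week non-traced CD24+ replicate 1 with 144 molecules of Ghrl, and Ahsg at most 3, in a Ghrl-led cell and a cell with 252 molecules of the Paneth gene Lyz1, both of 8-week traced CD24+ replicate 2.

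Some cells held more than 1 member. Without the Alb-rich cell, 25 cells held Afp, 17 held Igfbp2 and 4 held both, all of them endocrine-marker cells. Of the 17 cells with Igfbp2, 14 also held Ttr, and of the 25 with Afp, 16 did. Rbp4 was found in 3 of the 17 cells with Igfbp2. Transthyretin and its plasma partner, retinol-binding protein, were detected together in 44 cells, which is 44 of 96 with Rbp4 and 44 of 312 with Ttr.

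Clu stood apart from the endocrine genes. Its highest cell was barcode 60 of 8-week traced CD24+ replicate 3 with 13 molecules and 20877 transcripts, followed by barcodes 41 and 42 of replicate 1 of that group with 7 each. All 3 fell in a stem-like cluster of cells made without the 7 members and named by its markers. Over all cells outside the Alb-rich one, the 133 stem-like cells held 50 of 83 molecules of Clu (35.7 CPM), proliferating-like cells 8.62 CPM, enteroendocrine-like cells 7.04 CPM and goblet-like cells 0. These 3 cells had 12544 to 26046 transcripts and carried 6, 11 and 22 molecules of Lgr5. The other two cells with 5 or more molecules of Clu carried 0 (a proliferating-like cell with 5 of Mki67) and 1 (a stem-like cell).

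The clusters gave the same split for the others. The enteroendocrine-like cluster led by Chgb, Chga, Tac1 and Tph1 (32 cells) had 696 CPM of Afp, 326 CPM of Igfbp2 and 674 CPM of Ttr. The cluster led by Cpe, Gip and Chgb (64 cells) had 1089.6 CPM of Rbp4 and 226 CPM of Ttr. Ttr was also found in goblet-like (90.9 CPM), stem-like (82.3 CPM), proliferating-like (49.7 CPM) and Paneth-like cells (38.6 CPM), and was low in tuft-like (13.8 CPM) and enterocyte-like cells (3.96 CPM). These clusters are descriptions, since the cells that formed them are the cells measured.

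The genes whose levels over 891 cells ran most closely with each member, among 12409 genes, reflected these classes. With Afp these were Ucn3, a urocortin peptide (Pearson r 0.75), the vesicular monoamine transporter Slc18a2 (0.72) and the irritant channel Trpa1 (0.63). With Igfbp2 they were the enterochromaffin factor Lmx1a (0.61), Wfikkn2 (0.59) and St8sia3 (0.58), and with Ttr Chga (0.48), Tac1 (0.46) and Tph1 (0.45). With Rbp4 they were the fatty acid binding gene Fabp5 (0.79), the granin Scg2 (0.77) and Gm11992 (0.74). For Clu the top value was 0.33 (Ubd), for Alb 0.35 (Rgs17), and for Ahsg no gene reached 0.3; in counts this sparse these weak values are no finding. The cells share libraries and depth, so no p is given.

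Within libraries, summed endocrine-marker cells were set against the other cells of the same library in the 10 libraries with at least 3 of each. Without the Alb-rich cell, Rbp4 ran from 73.9 through a median of 501 to 1378 CPM in endocrine-marker cells, against 0, 5.17 and 12.7 CPM in other cells. It was higher in endocrine-marker cells in 10 of 10 libraries and the sums of both classes did not overlap. Ttr ran from 76.1 through 233 to 704 CPM in endocrine-marker cells, against 13.1, 47.96 and 119.8 CPM in other cells, with overlap and higher in 9 of 10. Afp was at 0 in 4 endocrine-marker sums and reached 973 CPM in the highest, with a median of 10.4, against at most 5.87 CPM in other cells. Igfbp2 was at 0 in 7 endocrine-marker sums and reached 336 CPM, against at most 3.51 CPM. The sums of both genes overlapped, because both classes held libraries at 0.

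In the edgeR quasi-likelihood fit over all genes, 26.1% of 8402 tested genes passed an adjusted p of 0.05 (11.6% higher and 14.5% lower in endocrine-marker cells). Of the 6 members that passed the filter on low counts, 4 were higher (Afp, Igfbp2, Rbp4, Ttr) and Ahsg was lower. Without the Alb-rich cell 5 were higher, now with Alb, and none lower, at 26.3% of all tested genes. Nothing is read from these counts, since the members were known from these cells. The log2 differences without that cell were 6.64 ± 0.44 for Afp, 6.23 ± 0.65 for Igfbp2, 6.01 ± 0.35 for Rbp4, 3.06 ± 0.71 for Alb, 2.21 ± 0.32 for Ttr and 1.44 ± 0.85 for Ahsg (SE, 10 libraries), where the median over all tested genes was -0.095. With it Alb stood at -0.30 ± 0.99 and Ahsg at -2.09 ± 0.69, so the direction of both changed with 1 cell. Clu had too few counts to be tested.

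Other plasma protein genes were split in the same contrast. Of 62 in the files, 17 were tested without the Alb-rich cell: 9 were higher and 4 lower in endocrine-marker cells, with a median log2 difference of 2.33. With that cell included, 18 were tested, 8 were higher and 4 lower, and the median was 0.61. The protease inhibitor Serpina1c averaged 134 ± 155 CPM in endocrine-marker cells against 1.16 ± 2.03 CPM in other cells (SD, 10 libraries; log2 6.27 ± 0.48; edgeR adjusted p = 5.12e-11), higher in 7 of 10 libraries. Ambp, the precursor of alpha-1-microglobulin and bikunin, averaged 66.1 ± 107 against 0.469 ± 1.03 CPM (5.77 ± 0.56; edgeR adjusted p = 1.07e-08), also higher in 7 of 10. Serpina1d and Serpina1e also passed, but are near-identical to Serpina1c and could share reads with it, so the split between them is uncertain. On the other side, angiotensinogen (Agt) fell to 2.97 ± 6.34 CPM in endocrine-marker cells against 43.8 ± 45.4 CPM (-4.38 ± 0.54; edgeR adjusted p = 3.11e-07), and the lipoprotein gene Apoc2 to 14.4 ± 21.9 against 71.5 ± 36.2 CPM (-3.20 ± 0.45; edgeR adjusted p = 2.54e-06), each higher in 0 of 10. Apoa4 and Cfb also fell, Cfb with a log2 difference of -0.62.

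These genes too were divided among hormones. Serpina1c stood at 771 CPM in Ghrl-led cells (12 of 19 cells) and at 3.45 CPM in Tac1-led cells. Ambp stood at 169 CPM in Tac1-led cells (9 of 30 cells) and at 13.5 CPM in Ghrl-led cells. Ambp was thus highest in the class where Afp and Igfbp2 were highest.

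Genes of the IGF pathway and factors shared by liver and gut were followed in the same contrast. Of 12 IGF pathway genes, 6 were tested and 3 rose: Igfbp3 averaged 33.6 ± 50.1 CPM in endocrine-marker cells against 0.111 ± 0.352 CPM (5.95 ± 0.74; edgeR adjusted p = 9.75e-07), with Irs1 at 3.33 ± 0.87 and the IGF2 receptor Igf2r at 0.77 ± 0.19. Of 15 tested transcription factors shared by liver and gut, 4 rose and 2 fell, with a list median of -0.0076. Hhex rose by 5.80 ± 0.64, and by leading gene it stood at 525 CPM in Sst-led cells. Foxa2, which binds liver and endocrine enhancers, rose by 2.07 ± 0.23 and was higher in 10 of 10 libraries, while Hnf4a fell by 0.43 on the log2 scale (edgeR adjusted p = 0.0443). The enterochromaffin list had 6 of 7 tested genes higher, with Tac1 at 6.45 ± 0.48. Paneth, goblet and tuft cell markers were lower in endocrine-marker cells for every gene tested (14, 9 and 9).

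Traced and non-traced CD24+ cells at 8 weeks were compared over all kept cells of a library, to ask how gated cells with the YFP mark differ from those without it. The labels do not say what share of Lgr5+ cells was marked, so lack of the mark is not read as another origin. Fewer cells of a type and less RNA per cell cannot be told apart in such sums. Igfbp2 was at 22.9, 123 and 31.02 CPM in 8-week traced CD24+ replicates 1 to 3, the second library standing at 68.98 without the Alb-rich cell, against 0 in both non-traced libraries. The summed traced cells thus held at least 29.7-fold more than the floor of 1.62 CPM over the non-traced group, or at least 22.1-fold without the Alb-rich cell. Afp was at 15.8, 291 and 147 CPM in the traced libraries (83.2 in the second without the Alb-rich cell), against 2.59 and 2.90 CPM in the non-traced ones. Few cells set these traced sums of Afp. A single cell held 20 of 21 molecules in replicate 1, and 2 cells held 68 and 22 of the 105 in replicate 3. In replicate 2, 39 of the 47 molecules in endocrine-marker cells lay in 1 cell. Over all kept cells besides the Alb-rich one, the top cell held 33.2% of Afp and 22% of Igfbp2. Clu was at 18.97, 21.8 and 35.7 CPM (12.5 in the second without the Alb-rich cell), against 1.72 and 2.90 CPM. For these 3 genes the groups did not overlap. How many of all tested genes did not overlap was not counted, so nothing is read from overlap here or in the other comparisons.

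Ttr was at 95.3, 372 and 92.9 CPM in the traced libraries (184 in the second without the Alb-rich cell), against 60.2 and 51.2 CPM in the non-traced ones, again with no overlap. Rbp4 went the other way, with 18.99, 182 and 64.5 CPM in traced cells (158 in the second without that cell), against 137 and 168 CPM in non-traced cells. Its groups overlapped through the second traced library. Alb was at 0, 538 and 3.77 CPM in traced libraries (37.5 in the second without that cell), against 3.46 and 13.1 CPM, and Ahsg at 0.724, 401 and 0 CPM (42.3 without it), against 0 and 5.80 CPM. The traced means of these 2 genes were set by the Alb-rich cell.

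In the edgeR fit, 4.23% of 8762 tested genes passed (1.56% higher and 2.67% lower in traced cells), and 4.50% of 8753 without the Alb-rich cell (1.69% higher and 2.81% lower). Of 6 members tested, 3 were higher (Afp, Clu and Igfbp2), and 4 without that cell, with Ttr. Nothing is read from these counts, since this contrast was known when the members were chosen. The log2 differences were 5.63 ± 1.24 for Afp (4.78 ± 1.07 without the Alb-rich cell), 3.44 ± 0.60 for Clu (3.29 ± 0.69), 1.65 ± 0.50 for Ttr (1.10 ± 0.27), -0.93 ± 0.55 for Rbp4 (-1.07 ± 0.51) and 4.45 ± 1.93 for Alb (0.54 ± 1.18). Ahsg did not pass the filter on low counts. In the combined table the names of replicate 1 of both groups lack a mark II that the names of the other libraries carry; no label says what it stands for. Among the libraries without the mark the traced one stood above the non-traced one for Afp (15.8 against 2.59 CPM), Clu (18.97 against 1.72), Igfbp2 (22.9 against 0) and Ttr (95.3 against 60.2). Among those with it both traced libraries, without the Alb-rich cell, stood above the non-traced one for the same 4 genes. Without non-traced replicate 1, Afp, Clu and Igfbp2 did not pass, at log2 differences of 5.53 for Afp and 3.03 for Clu. Without non-traced replicate 2, Afp (5.71) and Igfbp2 did not pass. Both fits left a single non-traced library. No log2 difference is given for Igfbp2, since the non-traced libraries held 0 molecules of it and only the bound above holds. Without traced replicate 1, 148 genes passed in place of 371.

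The cell kinds that held these genes also differed in number. Tac1-led cells were 10.3%, 9.23% and 7.25% of kept cells in the 8-week traced CD24+ libraries, against 2.38% and 3.17% in the non-traced ones. Gip-led cells were 1.15%, 4.62% and 2.90% of traced cells, against 5.95% and 9.52% of non-traced cells. Inside Tac1-led cells, Igfbp2 was found in 5 of 9, 5 of 6 and 2 of 5 traced cells of replicates 1 to 3. It was found in 0 of 2 such cells in each non-traced library. With the floor of 3 counts spread over 4 cells, 0 of 4 allows a share of up to 75%, a rough and wide bound at so few cells. Afp was found in 8 of 20 traced Tac1-led cells, against 1 of 4 non-traced ones. Of the traced 8, 4 lay in replicate 2, the library of the Alb-rich cell, with 39, 3, 1 and 1 molecules. The counts of 1 and 3 there are not read as expression. The others held 20 and 1 molecules in replicate 1 and 68 and 22 in replicate 3. Ttr averaged 841 ± 414 CPM in traced Tac1-led cells (SD, 3 libraries), against 950.4 ± 411 CPM in non-traced ones (2 libraries), which differ by less than the spread. Rbp4 in Gip-led cells averaged 1827 ± 1402 CPM in traced (6 cells), against 1966 ± 994 CPM in non-traced libraries (11 cells), again within the spread. None of these differences was tested, and their part in the sums was not tested.

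**Figure D4:**
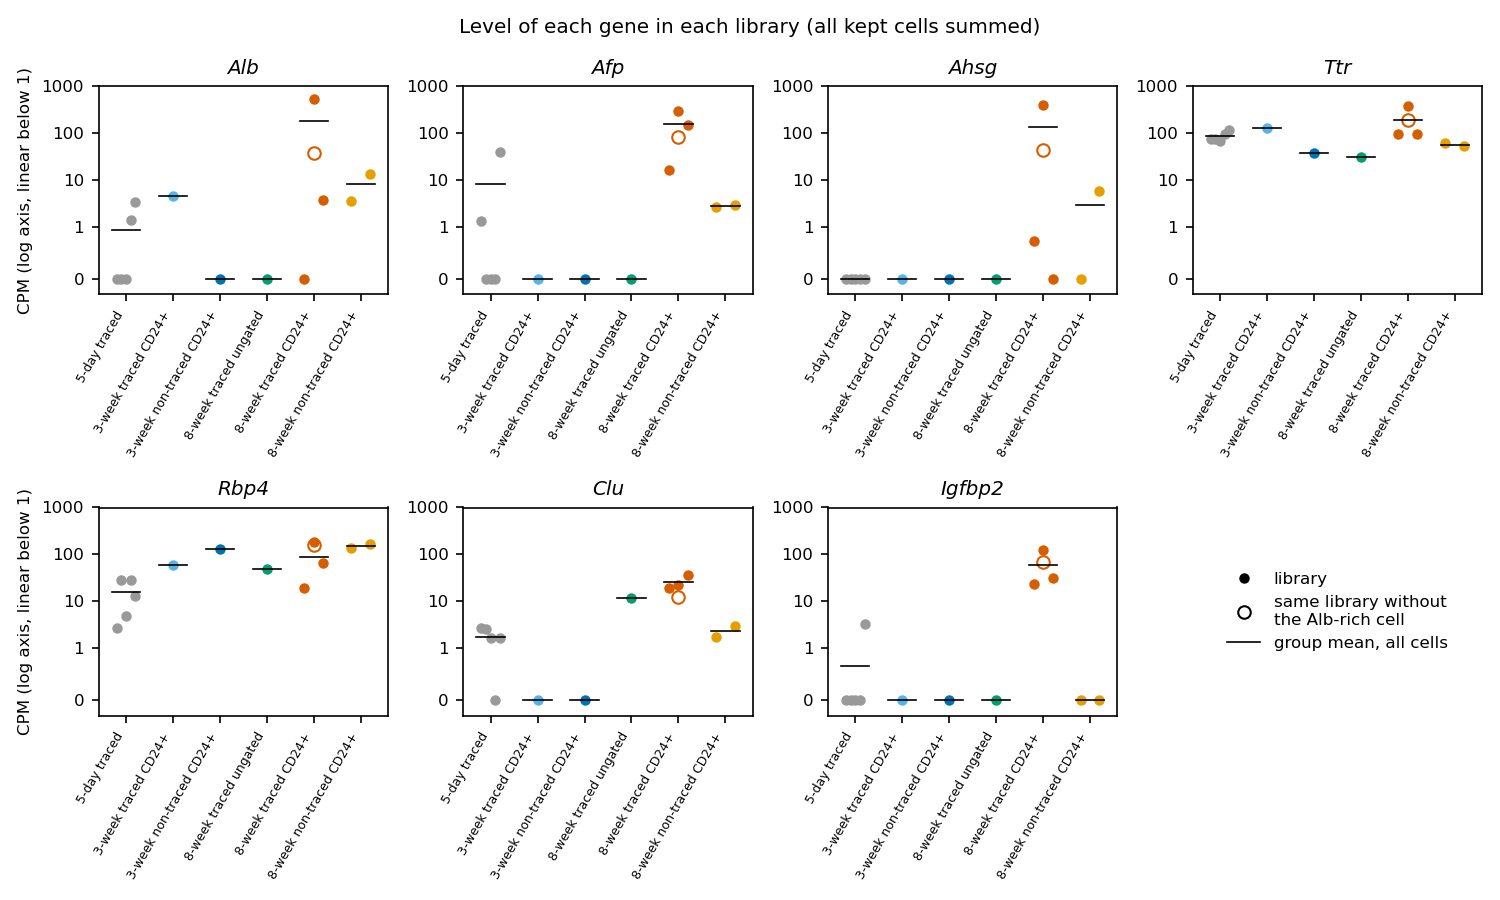
Level of each gene (CPM, log axis, linear below 1) in each library with all kept cells summed; filled points are libraries, lines group means, and open circles 8-week traced CD24+ replicate 2 without the Alb-rich cell. For Igfbp2, Afp and Clu all 3 traced CD24+ libraries at 8 weeks lie above both non-traced ones with and without that cell, and for Alb and Ahsg they do not.

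The lists of plasma, IGF, retinoid and factor genes had 0 or 1 gene passing in each direction, while markers of several cell types differed. Of 10 tested plasma protein genes none rose and Agt fell, to 34.4 ± 11.4 CPM in traced against 82.1 ± 5.07 CPM in non-traced libraries (SD, n = 3 and 2; log2 -1.18 ± 0.25; edgeR adjusted p = 0.0232); the list median was 0.54, and -0.13 without the Alb-rich cell, where Cfb also fell (-0.71 ± 0.17). Of 5 tested IGF pathway genes, Igfbp4, another IGF binding protein, rose to 109 ± 13.7 against 48.9 ± 17.8 CPM (1.21 ± 0.26; edgeR adjusted p = 0.0218). No retinoid or thyroid hormone handling gene of 6 tested passed. Of 15 liver and gut factors Onecut2 rose (0.95 ± 0.20; edgeR adjusted p = 0.0192) and Hhex fell (-3.46 ± 0.73; edgeR adjusted p = 0.0213). Neurog3 averaged 125.9 ± 14.8 CPM in the traced libraries and 12.2 ± 11.1 CPM in those without the mark (3.20 ± 0.36; edgeR adjusted p = 0.00107), and Chga 1123 ± 464 and 341 ± 204 CPM (1.71 ± 0.37; edgeR adjusted p = 0.0236), the only 1 of 8 tested enterochromaffin genes to pass. Stem cell markers had 4 of 9 tested genes higher (list median 0.99) and proliferation markers 4 of 18 (1.07), and tuft cell markers had 9 of 9 lower (-1.24), where 1.56% of all tested genes were higher and 2.67% lower. Of 19 tested core endocrine genes 2 were higher, 1 was lower and 16 did not pass, with a list median of -0.35. Of 8 tested peptide hormone genes 0 were higher and 1 was lower (list median -1.26). The summed core endocrine list nevertheless ran from 4005 to 6971 CPM where cells were traced and from 3393 to 3787 CPM where they were not. The stem list ran from 1193 to 1391 and from 648 to 857 CPM, and the leukocyte list from 10.8 to 29.04 and from 34.9 to 64.3 CPM. The part of these differences in the levels of the members was not tested.

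Against the 5-day traced cells, the 8-week traced CD24+ cells differed in time, CD24 gate and sex at once, which cannot be told apart. The 5-day libraries 1 to 5 held 1.34, 0, 0, 0 and 39.5 CPM of Afp, against the 8-week values above, and 23 of the 24 molecules lay in a single Tac1-led cell of replicate 5. They held 0, 0, 0, 0 and 3.28 CPM of Igfbp2, 2.69, 2.55, 1.63, 0 and 1.64 CPM of Clu, and 2.69, 28.5, 4.88, 28.5 and 13.3 CPM of Rbp4. Ttr was steadier at 75.6, 74.3, 66.9, 96.1 and 114 CPM. Alb was at 0, 0, 0, 1.41 and 3.29 CPM and Ahsg at 0 in all 5.

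The groups overlapped for Afp, Rbp4 and Ttr and did not for Clu and Igfbp2, again without a count over all tested genes. In the edgeR fit 37.1% of 8514 tested genes passed, and all 5 members tested were higher in the 8-week cells; without the Alb-rich cell, 4 were tested and 3 were higher (Afp, Igfbp2 and Rbp4), at 37.2%. The log2 differences were 6.13 ± 0.89 for Igfbp2, 4.16 ± 0.93 for Afp, 3.67 ± 0.49 for Clu, 2.26 ± 0.64 for Rbp4 and 0.99 ± 0.35 for Ttr, where Clu was not tested without the Alb-rich cell and the others stood at 5.65 ± 0.69 for Igfbp2, 3.32 ± 0.89 for Afp, 2.13 ± 0.61 for Rbp4 and 0.44 ± 0.21 for Ttr. Alb and Ahsg did not pass the filter on low counts. Ahsg was at least 107-fold higher in the summed 8-week cells than the floor of 0.865 CPM over the 5-day group, and at least 11.5-fold without the Alb-rich cell. Of its 28 molecules in the remaining 8-week cells, 27 lay in replicate 2, and the other 8-week libraries held 1 and 0, under the floor of 3 counts, so the bound rests on that library. Without 5-day replicate 5 the difference of Afp stood at 8.05, and without 8-week traced CD24+ replicate 2 Ttr (0.12) and Rbp4 (1.24) did not pass. Ttr also did not pass without any of 5-day replicates 1 to 4 (0.92 to 1.04) or with DESeq2 (1.03), nor did Afp with DESeq2 (4.15). This comparison shares the 8-week traced CD24+ libraries with the preceding one. Of 8 tested plasma protein genes, Agt rose to 34.4 ± 11.4 CPM against 3.88 ± 1.97 CPM in 5-day cells (3.14 ± 0.38; edgeR adjusted p = 2.15e-05) and Cfb rose, while 5 fell, among them the enterocyte lipoprotein genes Apoa4 (-6.05 ± 0.55) and Apoa1 (-4.64 ± 0.74, and -7.19 ± 0.53 without the Alb-rich cell). Of 10 retinoid and thyroid genes 1 rose and 5 fell, led by the enterocyte retinol-binding gene Rbp2 (-6.24 ± 0.69; edgeR adjusted p = 9.15e-06). The enterochromaffin list rose in all 8 genes tested, and 12 of 13 enterocyte markers fell.

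The groups of a single library had no replicate check. The 3-week traced CD24+ cells held 4.59 CPM of Alb, 129 CPM of Ttr and 60.2 CPM of Rbp4, with the other members at 0. The 3-week library with the label non-traced held 128 CPM of Rbp4, 40 of its 44 molecules in a single cell, and 37.9 CPM of Ttr, with the others at 0. The 8-week traced cells with no CD24 gate held 48.8 CPM of Rbp4, 30.1 CPM of Ttr and 11.9 CPM of Clu, with Alb, Afp, Ahsg and Igfbp2 at 0. Over the 6 groups, mean levels in 8-week traced CD24+ cells were the highest for every member but Rbp4, whose highest mean lay in 8-week non-traced CD24+ cells (153 ± 22.03 CPM, SD, n = 2). Without the Alb-rich cell the mean of Ttr, 124 ± 51.7 CPM (SD, n = 3), lay below the 129 CPM of the 3-week traced library.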

How the data were processed

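Single-cell RNA of sorted mouse small-intestine cells was measured by CEL-seq. The deposited tables hold estimated counts of transcripts per gene and cell: the authors counted molecular barcodes and corrected them for chance repeats, a step read from the values, which turn back into whole molecules with 256 possible barcodes. Reads were aligned with BWA 0.6.2-r126 to mm10, per the submitters' processing notes; gene models are not given in the sources used here.

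Barcodes with 3000 or more transcripts were kept (892 of 1248). Kept cells were summed per library, or per library and class (at least 3 cells of each), the sums were rounded, and genes were tested with edgeR 4.0.16 (R 4.3.3; TMM, filterByExpr, quasi-likelihood, Benjamini-Hochberg threshold 0.05), with the library as a block for the contrast within libraries. Cells were clustered without the 7 members (scanpy 1.11.5, leidenalg 0.10.2). Figures were drawn with matplotlib 3.10.9. Alternatives were DESeq2 1.42.0, other scalings, filters and cell cut-offs, and leaving out each library. Named genes were the members, of each list at most the 4 genes with the largest differences among those that passed in each direction, and for each member the 3 genes with the highest Pearson r of log2(transcripts per 10000 + 1) over kept cells, where r reached 0.3; a gene that this rule names is not reported here. The members and lists were chosen with earlier results of these data known. The combined table repeats 7 of the libraries with the same values.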

Additional observations from a re-analysis of the deposited data

Results flagged for a closer look

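For 2 of the 6 members with values in the 5-day group the highest of the 5 libraries lay far from the others, a flag that chance gives in about 1 in 20 groups of evenly spread values. That rate does not hold for counts mostly at 0, where any single library with a molecule is flagged, and the members were chosen because their counts gather in few cells. Afp stood at 39.5 CPM in 5-day traced replicate 5, with all 23 molecules in a single cell led by Tac1, against 0 to 1.34 CPM in the other 5-day libraries. Igfbp2 stood at 3.28 CPM in the same library, 2 molecules in 2 cells, against 0 in the other four.

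Molecules of the members were also counted in the 356 barcodes under 3000 transcripts, which entered no comparison and held 298381 transcripts in all. They held 31 molecules of Ttr in 16 barcodes, 12 of Alb in 9 barcodes, 11 of Rbp4 in 8 and 10 of Afp in 6. Ahsg had 4 molecules, all in 8-week traced CD24+ replicate 2, the library of the Alb-rich cell, where 10 of the 12 molecules of Alb also lay.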

How the results depend on the processing

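Between 8-week traced and non-traced CD24+ cells 371 genes passed in the edgeR fit; 200 passed with DESeq2, 811 with no filter on low counts, and 55 to 344 when a library was left out, the lowest without non-traced replicate 1. Within libraries 2194 genes passed (974 higher and 1220 lower in endocrine-marker cells) and 669 with no replicate block; with DESeq2 scaling factors the split was 1070 and 973, and with DESeq2 itself 976 and 805. The log2 difference of Alb in that contrast was positive with DESeq2 (4.76), without the Alb-rich cell (3.06) and without 8-week traced CD24+ replicate 2 (4.54), with a leave-one-out range of -1.04 to 4.54. Ahsg was positive with DESeq2 (2.51) and without the Alb-rich cell (1.44). Apart from the changes that the Alb-rich cell makes by its absence, the cause was not tested.

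Of the other values, 48 main results and 388 of single genes were counted as unchanged. For a number of passing genes this means only that it stayed within a set factor of the main number. For the difference of a single gene it means the same direction and side of the threshold. Of single genes, 18 fell below the threshold and 9 rose above it. Another 11, all mean levels of a group, moved by more than the spread between libraries or the counting interval. At 8 weeks against 5 days the call of Ttr was lost with DESeq2 (log2 1.03), with a minimum of 5000 transcripts per cell (0.98), without any of 5-day replicates 1 to 4 (0.92 to 1.04), without 8-week traced CD24+ replicate 2 (0.12) and without the Alb-rich cell (0.44). In the same comparison Rbp4 lost its call without 8-week traced CD24+ replicate 2 (1.24) and Afp with DESeq2 (4.15). With the replicate number as a replicate block, 485 genes passed between traced and non-traced cells, against 344 in the same libraries without it, and 3057 against 2809 between 8 weeks and 5 days. Residuals of same-numbered libraries correlated at 0.0905 and 0.127, and at 0.039, -0.0207 and 0.0625, so neither the labels nor these few pairs show that the numbers pair the libraries. With the block Alb also passed between traced and non-traced cells (4.58), which it did not in the same libraries without it. Few cells limit most members: outside the Alb-rich cell Igfbp2 was found in 17 cells, Ahsg in 23, Afp in 25, Alb in 35 and Clu in 38.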

Other observations

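Other plasma protein genes were also described by leading gene, most on few molecules. Cpn1, a subunit of carboxypeptidase N, stood at 45.9 CPM in Gip-led endocrine-marker cells (10 molecules in 9 of 27 cells). In Gcg-led cells it stood at 73.1 CPM, on 3 molecules in 2 of 5 cells. In Cck-led cells it stood at 51.7 CPM, on 2 molecules in 1 of 4. It was at 10.6 to 31.1 CPM in Sst-led, Ghrl-led and Neurog3-led cells (1 to 3 molecules each) and at 0 in Tac1-led cells. With so few molecules Cpn1 is not ranked among the classes. Within libraries it was at 32.4 ± 25.8 CPM in endocrine-marker cells against 2.01 ± 2.16 CPM in other cells (SD, 10 libraries; log2 3.43 ± 0.64; edgeR adjusted p = 0.000169), higher in 8 of 10. Serpina1c stood at 212 CPM in cells led by Neurog3 (20 molecules in 3 of 14 cells). Its 156 CPM in those led by Cck were 6 molecules in 1 cell, and its 122 CPM in those led by Gcg 5 molecules in 2 cells. Alb was at 98.2 CPM, 7 molecules in 4 cells, in the 12 endocrine-marker cells with no leading gene, and at 41.5 CPM, 4 molecules in 4 cells, in those led by Neurog3.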
